A study of Mus musculus with 9 samples.

Results

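The enzymes that build cholesterol and fatty acids, the proteins that control them through SREBP, and the LXR genes that move sterol out of cells were followed as a list of 35 genes. Members were listed by symbol for their known roles, with earlier results of these data known, and all 35 were found by Ensembl identifier among the 55416 genes of the count table and passed the filter on low counts, which kept 14879 genes. They fall into 7 genes of the mevalonate arm, 3 from squalene synthesis to lanosterol, and 8 from lanosterol to cholesterol. The others are 6 of fatty acid synthesis, 6 of SREBP control and sterol transport, and 5 of the LXR arm.

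RNA-Seq was run on cultured AdvSca1-SM cells, smooth muscle–derived adventitial progenitors that carry Sca1, in 3 groups of 3 libraries. The cells came from arteries of pooled SM22α-Cre-YFP mice on a C57BL/6 background, were sorted as YFP+ and Sca1+, and were passaged in culture. Whether 1 pool supplied all 9 libraries is not stated in the sources used here. The Cre driver serves to trace mature smooth muscle cells and the AdvSca1-SM cells derived from them. The study allows that rare Sca1+ smooth muscle cells of the media were part of its samples. Stem cells received vehicle and were kept in stem cell medium, which holds basic fibroblast growth factor and epidermal growth factor. TGF-β cells were growth arrested for 24 hours in 0.1% serum and then held for 72 hours in another basal medium with 0.1% serum and 5 ng/mL TGF-β1. Both cells were handled as TGF-β cells and also received 50 μM PFI-3, a ligand of the Brg1 bromodomain. All groups received 0.1% DMSO. TGF-β1, basal medium and growth factors thus changed together between Stem and TGF-β, and their parts cannot be told apart, nor can that of serum, which is 10% in the maintenance form of the stem cell medium and 0.1% in its arrest form. TGF-β and Both differ by PFI-3 alone in the protocol.

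Library totals ran from 35686291 to 47741128 counts, and the lowest Spearman correlation between libraries of a group was 0.9947. The biological coefficient of variation was 6.13% over the genes tested. Ly6a, Cd34 and Pdgfra, markers of these cells, were present in every library, with a summed level of 49640 to 57308 normalized counts in the Stem libraries, 6253 to 6561 in TGF-β and 6728 to 7390 in Both. Pdgfra carried most of that sum, with means of 45657, 5438 and 6268 in the same order. The other genes were lower in Both than in TGF-β, with means of 7635, 941 and 734 for Ly6a and 379, 20.8 and 13.4 for Cd34. The labels name hepatic tissue as the source of the RNA, but 9 hepatocyte markers together reached 3.14 to 7.57 normalized counts in Stem, 12.2 to 15.1 in TGF-β and 11.8 to 15.8 in Both, where 3 counts correspond to 2.63 to 3.26 normalized counts. Apoa2 carried most of that sum, 7 of the 9 were at 0 in all Stem libraries, and Alb stayed at or under 1.76 in every library. Among 5 adipocyte markers the summed level was 183 to 217 in Stem, 39.9 to 44.9 in TGF-β and 38.7 to 52.7 in Both, nearly all of it Fabp4, and in each group 3 of the 5 were at 0 in all libraries. The 5 macrophage markers summed to 19.6 to 41.9, 71.0 to 102.5 and 152 to 156 in the same order, with 3, 2 and 2 of them at 0 in all libraries of the group, and Csf1r carried most of the sum. The 4 endothelial markers summed to 48.3 to 67.4 over all groups, but not with the same genes: Kdr had a mean of 0.721 in Stem and 26.1 in TGF-β, and Tek 45.7 and 18.3. The part of these markers in the results was not tested.

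Cells make cholesterol from acetyl-CoA through mevalonate, isoprenoid diphosphates, squalene and lanosterol, and they make fatty acids from the same acetyl-CoA. Both branches are driven by the transcription factors SREBP, which are made as membrane precursors and escorted by SCAP to the Golgi for cleavage when sterol is scarce. INSIG proteins hold SCAP back when sterol is plentiful. LXR receptors respond to oxidized sterols and turn on efflux transporters and the ubiquitin ligase gene Mylip, which lowers sterol uptake.

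SREBP proteins bind sterol response elements near gene starts, often beside NF-Y, which binds CCAAT boxes. A window of 250 bases before to 50 bases after the annotated start was held for 28 of the 35 members in RefSeq (build GRCm38.p6). The 7 members without a window were Abcg1, Stard4, Fdft1, Scd1, Scd2, Sqle and Fdps. CCAAT was found on either strand in 21 of the 28 member genes, against 41.1% of all 27025 genes with a window and 37.4% of all 32851 windows. The element TCACNCCAC was found in 1 member, Hmgcs1, from position -137 to -129, against 1.44% of genes. The E-box CACGTG was found in 6 of the 28 member genes, against 8.09% of genes. The LXR element DR4, 2 copies of AGGTCA parted by 4 bases, was found in 0 of the 28 and in 0.0148% of genes. CCAAT and its complement can overlap, and each occurrence was counted. A match is a run of letters and not a measured site, and only exact matches were counted.

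The 250 bases before the start are given for Hmgcs1, as the holder of the sterol element, and for Mvd, Ebp and Fasn, the largest changes of their groups among members with a window, and Mylip, as the LXR target that differed with PFI-3. All are 5′ to 3′ along the gene, with the TCACNCCAC element and the CCAAT boxes (read as ATTGG on the other strand) in capitals.
Hmgcs1 (chr13:119690101-119690350, plus strand): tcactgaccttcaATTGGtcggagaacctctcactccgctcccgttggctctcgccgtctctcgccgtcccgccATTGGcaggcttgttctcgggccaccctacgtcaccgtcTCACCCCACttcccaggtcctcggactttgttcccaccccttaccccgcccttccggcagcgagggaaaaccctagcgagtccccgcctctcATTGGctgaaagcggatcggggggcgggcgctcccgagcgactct
Mvd (chr8:122443423-122443672, minus strand): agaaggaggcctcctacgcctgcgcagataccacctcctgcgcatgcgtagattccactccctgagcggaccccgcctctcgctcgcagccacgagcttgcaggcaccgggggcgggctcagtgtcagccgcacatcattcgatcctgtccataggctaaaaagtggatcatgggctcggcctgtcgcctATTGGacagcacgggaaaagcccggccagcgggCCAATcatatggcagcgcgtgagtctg
Ebp (chrX:8193513-8193762, minus strand): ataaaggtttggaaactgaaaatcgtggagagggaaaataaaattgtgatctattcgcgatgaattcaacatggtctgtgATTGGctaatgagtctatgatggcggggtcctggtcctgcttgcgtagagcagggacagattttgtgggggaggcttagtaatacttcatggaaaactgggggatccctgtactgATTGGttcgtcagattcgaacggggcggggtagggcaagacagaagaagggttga
Fasn (chr11:120824548-120824797, minus strand): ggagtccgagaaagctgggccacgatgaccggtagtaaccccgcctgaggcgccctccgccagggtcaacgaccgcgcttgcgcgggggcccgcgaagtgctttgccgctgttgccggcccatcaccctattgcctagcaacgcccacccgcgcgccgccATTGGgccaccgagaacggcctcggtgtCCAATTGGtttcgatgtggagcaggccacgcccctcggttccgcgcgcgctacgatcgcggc
Mylip (chr13:45389492-45389741, plus strand): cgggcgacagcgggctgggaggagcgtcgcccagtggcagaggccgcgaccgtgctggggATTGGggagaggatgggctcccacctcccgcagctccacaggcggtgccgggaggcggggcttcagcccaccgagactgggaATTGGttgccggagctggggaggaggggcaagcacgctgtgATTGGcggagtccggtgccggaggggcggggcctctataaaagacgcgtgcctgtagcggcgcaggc
Upstream of the start, Hmgcs1 and Fasn hold 3 CCAAT boxes each, of which the 2 nearest the start overlap in Fasn, and Mvd and Ebp hold 2 each. Mylip, which moved the other way between Stem and TGF-β, also holds 3.

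Transcripts for sterol and fatty acid synthesis were more abundant in TGF-β than in Stem. All 24 synthesis enzymes of the list rose, by 1.33-fold (Mvk) to 3.99-fold (Scd1), and their lowest TGF-β library lay above their highest Stem library in 24 of 24 cases. The sterol sensor gene Insig1 rose 3.49-fold, while Insig2, Scap and the LXR genes Nr1h3, Abca1 and Mylip fell. Over the 35 members, 29 rose, 5 fell and 1 (Nr1h2) did not pass an adjusted p of 0.05 in edgeR's quasi-likelihood test, which was adjusted over all 14879 genes. That is 82.9% of members higher and 14.3% lower, where 37.3% of all genes tested were higher and 37.7% lower. With a fold of at least 2 as well, 18 members were higher and 2 lower (Mylip and Nr1h3), or 51.4% and 5.71%, against 10.6% and 14.5% of all genes. The median log2 fold change was 1.02 over the members and -0.0027 over all genes. In libraries that did not overlap between groups, 29 members were higher and 5 lower, and the background was 38.1% and 38.7%.

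**Figure D1:**
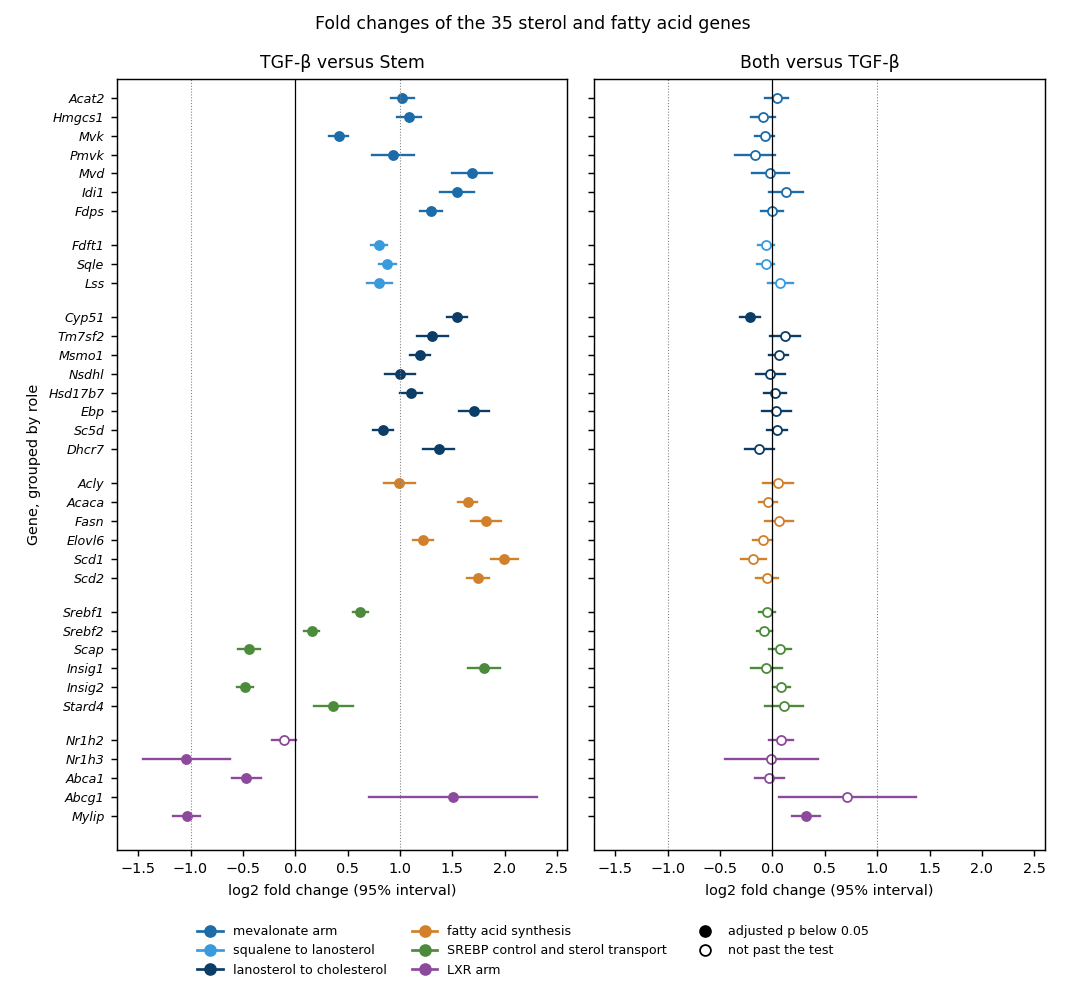
Log2 fold change of each of the 35 genes with its 95% interval, for TGF-β versus Stem on the left and Both versus TGF-β on the right; filled points passed an adjusted p of 0.05 and dotted lines mark a 2-fold change. The 24 synthesis enzymes all lie to the right of 0 on the left, and 21 of their 24 intervals hold 0 on the right.

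The members took 0.599% ± 0.0304 (SD, n = 3) of a Stem library, 1.38% ± 0.0384 of a TGF-β library and 1.36% ± 0.0348 of a Both library. Fatty acid synthesis alone made up most of that rise, from 0.276% ± 0.0241 in Stem to 0.813% ± 0.0223 in TGF-β and 0.799% ± 0.0211 in Both. The LXR arm went the other way, with 0.0372% ± 0.000198 of counts for Stem, then 0.0247% ± 0.00181 for TGF-β and 0.0257% ± 0.000368 for Both. In bulk RNA, more cells that express a gene and more RNA per cell cannot be told apart.

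**Figure D2:**
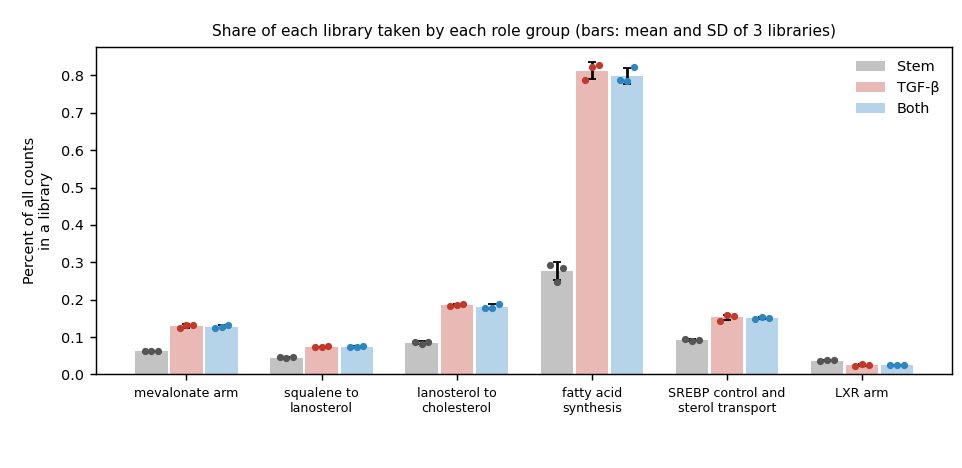
Percent of all counts in a library that fell on the genes of each role group, with points for the 3 libraries of Stem, TGF-β and Both and bars for their mean and SD. Fatty acid synthesis takes 0.276% of counts in Stem and 0.813% in TGF-β, and the LXR arm is the group with a lower share in TGF-β than in Stem.

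In the mevalonate arm, which turns acetyl-CoA into farnesyl diphosphate, 7 of 7 genes rose and 5 of them at least 2-fold, with a median log2 fold change of 1.09. The largest change was that of Mvd, the decarboxylase that yields isopentenyl diphosphate. Mvd stood at 1425, 1181 and 1328 normalized counts in the Stem libraries, 4089, 4012 and 4584 in TGF-β, and 4328, 3673 and 4498 in Both. Idi1, the isomerase of the next step, read 1990, 2551 and 2070 in Stem, 6211, 6651 and 6423 in TGF-β, and 6796, 7073 and 7225 in Both. The 3 Stem libraries were the low ones for both genes, and neither gene overlapped between Stem and TGF-β. The fold changes were 3.22 for Mvd, with an SE of 0.087 on the log2 scale, and 2.92 for Idi1, with an SE of 0.076.

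Fdps, the farnesyl diphosphate synthase, gave 3499, 3738 and 3353 normalized counts in the Stem libraries, 8337, 9010 and 8705 in TGF-β, and 8317, 8887 and 8733 in Both. Hmgcs1, whose enzyme makes HMG-CoA and whose upstream stretch is printed above, gave 10931, 12258 and 11549 in Stem, 23311, 26186 and 24293 in TGF-β, and 22290, 23740 and 23236 in Both. Acat2, which joins acetyl-CoA into acetoacetyl-CoA, gave 3178, 3370 and 3173 in Stem, 6474, 6423 and 6864 in TGF-β, and 6844, 6307 and 7194 in Both. Again the Stem libraries were all below the others, with fold changes of 2.46, 2.12 and 2.03 for Fdps, Hmgcs1 and Acat2 in TGF-β versus Stem. The phosphomevalonate kinase gene Pmvk rose 1.91-fold and the mevalonate kinase gene Mvk 1.33-fold, the smallest change among the enzymes. In the annotation, 26.7% of the exonic bases of Fdps lie in the exons of Gm43738 on the same strand, and 12.1% of Hmgcs1 and 9.22% of Idi1 lie opposite Gm48342 and Gm48574, so that reads there may be shared.

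In the steps that form squalene and turn it into lanosterol, all 3 genes rose and 0 of 3 reached 2-fold by edgeR or DESeq2. Sqle, the squalene epoxidase gene, changed most, from 8207, 8834 and 8292 normalized counts in the Stem libraries to 15615, 15506 and 15492 in TGF-β, and to 14831, 14754 and 15034 in Both. Its 3 TGF-β libraries lay within a narrow band, with an SD of 66.9, well above every Stem library. The fold changes in TGF-β versus Stem were 1.84 for Sqle, 1.74 for the squalene synthase gene Fdft1 and 1.74 for the lanosterol synthase gene Lss. Of Fdft1's exonic bases, 18.3% lie opposite exons of Ctsb.

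The steps from lanosterol to cholesterol rose in 8 of 8 genes, 6 of them at least 2-fold, with a median log2 fold change of 1.25. Ebp, the sterol isomerase, had the largest change of this group. It measured 1146, 1231 and 1190 normalized counts in the Stem libraries, 3998, 3724 and 3929 in TGF-β, and 3981, 3590 and 4389 in Both. Cyp51, the lanosterol demethylase, measured 9213, 9539 and 9401 in Stem, 26207, 28439 and 27559 in TGF-β, and 22872, 24500 and 23494 in Both. For Ebp the Stem libraries alone stood apart, and for Cyp51 all 3 groups were separate, with Both between the others. Log2 fold changes in TGF-β versus Stem were 1.71 for Ebp (95% interval 1.56 to 1.85) and 1.55 for Cyp51 (1.45 to 1.64).

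Dhcr7, which reduces the last double bond, read 1482, 1354 and 1491 normalized counts in the Stem libraries, 3847, 3571 and 3788 in TGF-β, and 3503, 3067 and 3710 in Both. The sterol reductase gene Tm7sf2 read 1157, 1036 and 1087 in Stem, 2658, 2649 and 2823 in TGF-β, and 2787, 2777 and 3287 in Both. These are 2.59-fold and 2.48-fold higher levels in TGF-β, and 12.1% of the exonic bases of Tm7sf2 are shared with Vps51 on the same strand. Msmo1, Nsdhl and Hsd17b7 act in turn to take methyl groups off the sterol ring. For Msmo1, the methylsterol oxidase, the libraries gave 5576, 6144 and 6119 in Stem, 13546, 13640 and 13662 in TGF-β, and 13933, 13965 and 14644 in Both. Hsd17b7 gave 4865, 4909 and 5088 in Stem, 10706, 10422 and 10826 in TGF-β, and 10784, 10125 and 11578 in Both. Msmo1 rose 2.29-fold and Hsd17b7 2.15-fold, again without overlap. Nsdhl rose with a log2 fold change of 1.00, just under the 2-fold line, and the desaturase gene Sc5d rose 1.79-fold.

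Fatty acid synthesis rose in 6 of 6 genes, 5 of them at least 2-fold, with a median log2 fold change of 1.70. Scd1, a desaturase that makes monounsaturated fatty acids, showed the largest rise of the 35 members. Scd1 counted 13916, 12220 and 13560 normalized counts in the Stem libraries, 49509, 55740 and 53165 in TGF-β, and 45074, 46791 and 47840 in Both. Its relative Scd2 counted 50336, 46221 and 51150 in Stem, 160224, 169823 and 164851 in TGF-β, and 156933, 162799 and 157944 in Both. Both desaturase genes separated Stem from the other groups with room to spare, with log2 fold changes of 2.00 (95% interval 1.87 to 2.13) and 1.74 (1.64 to 1.85) in TGF-β versus Stem. As close relatives, they may share reads, and how reads with several alignments were counted is not given in the sources used here.

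Fasn, the fatty acid synthase gene, had 20760, 17996 and 19270 normalized counts in the Stem libraries, 67242, 67326 and 70217 in TGF-β, and 71927, 65346 and 76430 in Both. Acaca, the acetyl-CoA carboxylase that feeds it, had 5893, 5718 and 5868 in Stem, 17412, 18750 and 18557 in TGF-β, and 17693, 17367 and 18112 in Both. Both genes were above 3-fold, at 3.53 and 3.13. Elovl6, which elongates the product, had 2302, 2354 and 2458 in Stem, 5391, 5483 and 5704 in TGF-β, and 5169, 4962 and 5400 in Both, 2.33-fold higher in TGF-β than in Stem. Acly, which supplies acetyl-CoA from citrate, had 19172, 16126 and 17826 in Stem, 35369, 33918 and 36513 in TGF-β, and 36987, 33559 and 39186 in Both. Its log2 fold change was 0.99 in TGF-β versus Stem and 1.05 in Both versus Stem, on either side of the 2-fold line.

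**Figure D3:**
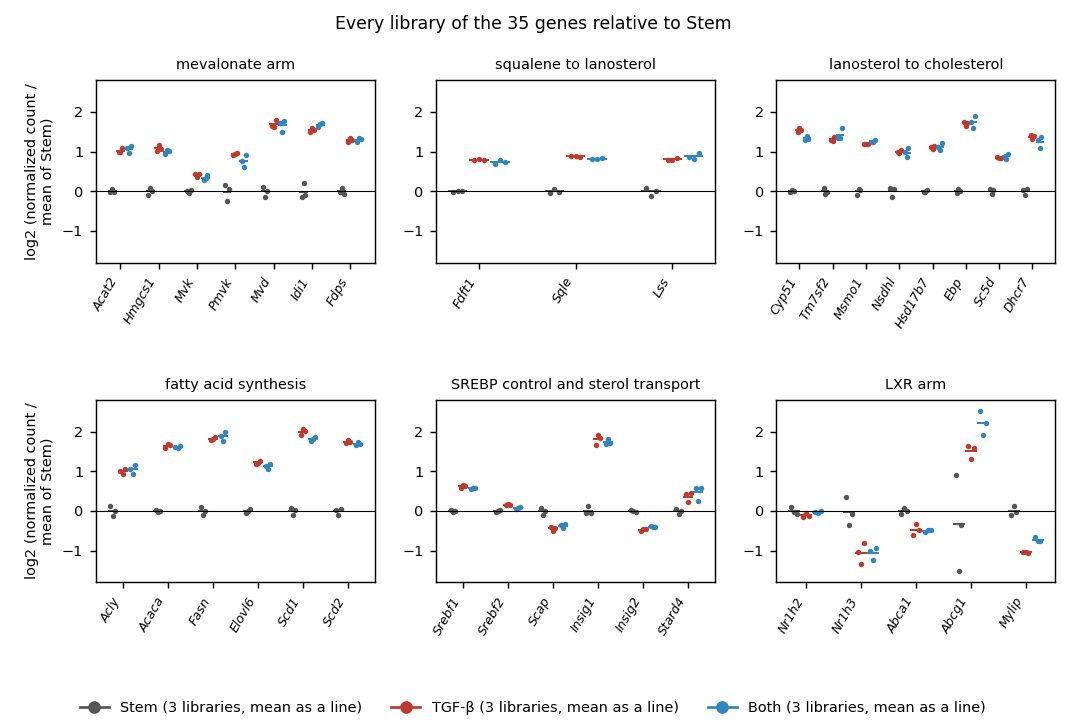
Each library of each gene as log2 of its normalized count over the Stem mean, in 6 panels by role, with the mean of the log2 values as a short line. In the 4 enzyme panels every TGF-β and Both library lies above every Stem library, and the widest spread is that of the 3 Stem libraries of Abcg1.

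Genes of SREBP control did not move one way: 4 of 6 rose and 2 fell. That is 66.7% and 33.3%, where 37.3% of all genes tested were higher and 37.7% lower. Insig1 had the largest change, from 10138, 11439 and 10156 normalized counts in the Stem libraries to 33405, 39877 and 37534 in TGF-β and 34224, 37308 and 34863 in Both, a log2 fold change of 1.80 (95% interval 1.65 to 1.96) in TGF-β versus Stem. Insig2, its relative, fell by 0.48 on the log2 scale, from a mean of 2309 ± 29.9 (SD, n = 3) in Stem to 1655 ± 33.3 in TGF-β. The 2 retention genes thus moved in opposite directions, and neither overlapped between the groups. Scap, the escort, fell by 0.44, from 5952 ± 359 to 4388 ± 156, and 13.2% of its exonic bases lie opposite 5830462I19Rik. Srebf1, which encodes the SREBP form tied mostly to fatty acid synthesis, rose 1.54-fold, from 4235 ± 57.3 to 6522 ± 165. Srebf2, tied mostly to sterol synthesis, rose 1.11-fold, from 8786 ± 109 to 9794 ± 118. With scaling by total counts, which moved the median of all genes to -0.12, Srebf2 was no longer past the test (log2 fold change 0.037, adjusted p = 0.388 by edgeR). Stard4, a sterol carrier in the cytosol, rose 1.29-fold.

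The LXR arm split as well, with 1 of 5 genes higher and 3 lower in TGF-β, a median log2 fold change of -0.47. Of all genes tested, 37.3% were higher and 37.7% lower. Mylip read 1925, 2283 and 2034 normalized counts in the Stem libraries, 1015, 1019 and 1004 in TGF-β, and 1312, 1236 and 1240 in Both. The cholesterol transporter gene Abca1 fell by 0.47 on the log2 scale, from 10581 ± 501 (SD, n = 3) to 7651 ± 757. Nr1h3, the gene of LXRα, was sparse, with 224, 137 and 166 in Stem, 86.3, 69.0 and 101 in TGF-β, and 86.4, 75 and 92.2 in Both. Stem was above both other groups in every library of Nr1h3 and Mylip. The log2 fold changes in TGF-β versus Stem were -1.04 for Mylip (95% interval -1.17 to -0.91) and -1.04 for Nr1h3 (-1.45 to -0.63), so that the precision for Nr1h3 was far lower. Without Stem replicate 2 the value for Mylip was -0.96, and for Nr1h3 it was -0.82 without Stem replicate 1 and -0.90 without TGF-β replicate 2, each still past the test but under 2-fold. Nr1h2, the gene of LXRβ, had 1631 ± 113 in Stem and 1511 ± 53.8 in TGF-β, and its log2 fold change of -0.11 gave an adjusted p of 0.0734 by edgeR, or 0.0346 without Stem replicate 3.

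Abcg1, the other LXR-driven efflux transporter, was the exception in the arm. It had 150, 28.3 and 62.7 normalized counts in the Stem libraries, 249, 199.8 and 241 in TGF-β, and 458, 303 and 370 in Both. The groups did not overlap, but the Stem libraries differed more, relative to their mean, than those of any other member. Its log2 fold change in TGF-β versus Stem was 1.51 with an interval from 0.71 to 2.31, and it became 2.34 without Stem replicate 1 and 1.11 without Stem replicate 2, past the test in both cases.

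**Figure D4:**
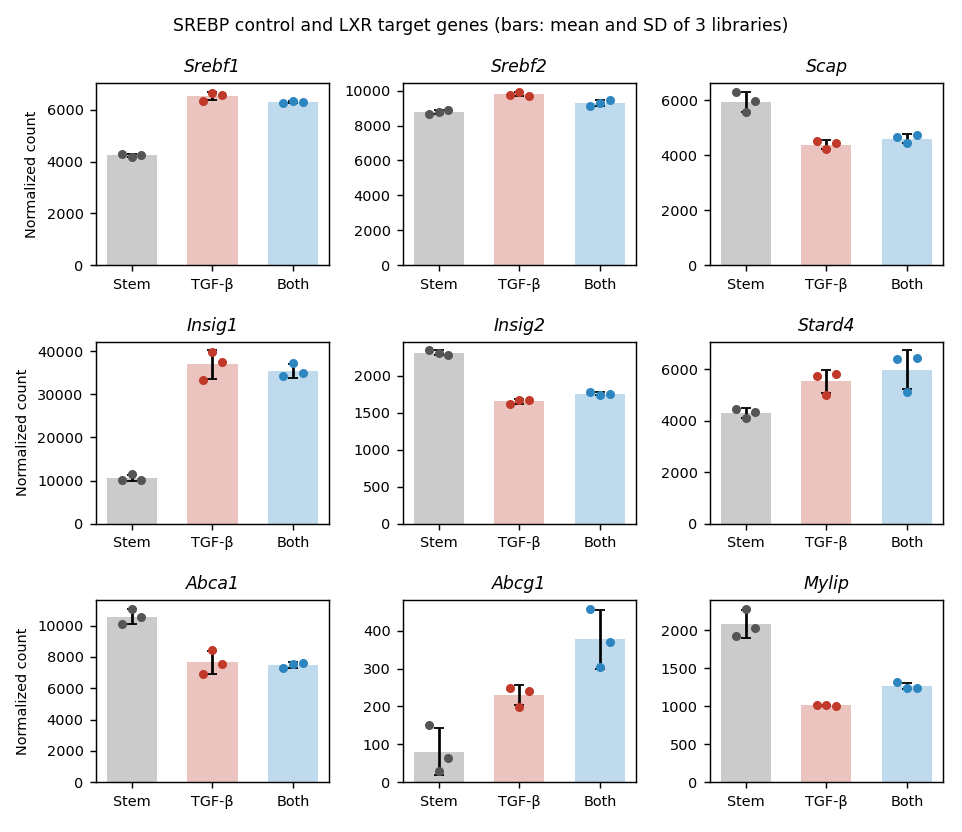
Normalized counts of 9 SREBP control and LXR target genes in the 3 libraries of each group, with bars for the mean and SD, on axes that start at 0. Insig1 and Insig2 change in opposite directions between Stem and TGF-β, and Mylip and Abcg1 are higher in Both than in TGF-β, by 1.25-fold and by 1.64-fold, the second of which did not pass the test.

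Levels per kilobase of exon put Scd2 first among the members in every group, with a mean of 9011 normalized counts per kilobase in Stem and 30191 in TGF-β. Insig1 followed in TGF-β at 11943 and Scd1 at 10794, from 3420 and 2705 in Stem. The lowest levels were those of Abcg1, at 11.0 in Stem and 31.5 in TGF-β, and Nr1h3, at 69.8 and 33.9. Lengths are the union of exons in an annotation of GRCm38, which is not the build of the counts.

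With PFI-3 the 24 synthesis enzymes stayed near their TGF-β levels, with a median log2 fold change of -0.02 in Both versus TGF-β. Among the 35 members 1 rose, Mylip, and 1 fell, Cyp51, which is 2.86% in each direction. Of all genes, 3.54% were higher and 5.38% lower, and in a list of 35 a single call each way is near that background. With a fold of at least 2, edgeR called 0 members, where the background was 0.161% higher and 0.47% lower. At an unadjusted p under 0.05, 7 members differed, 0 of them 2-fold, and DESeq2 called 1 higher and 2 lower at an adjusted p of 0.05 and 0 at 2-fold. The shares of all genes at that unadjusted p and by DESeq2 are not given here, so those counts cannot be set against a background. Non-overlap was found for 6 members higher and 7 lower in Both, beside 15.4% and 17.4% of all genes. The median log2 fold change was -0.011 over the members and -0.0020 over all genes.

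Among the 24 synthesis enzymes, the fold in Both versus TGF-β ran from 0.862 to 1.09, and 21 were within 10% of the TGF-β level by their estimate. Their 95% intervals reached down to -0.36 (Pmvk) and up to 0.29 (Idi1) on the log2 scale, which are 0.781-fold and 1.22-fold. Cyp51, the exception past the test, fell by 0.21 (95% interval -0.31 to -0.12, adjusted p = 0.00824 by edgeR's quasi-likelihood test), and all 3 Both libraries, listed above, lay below all 3 TGF-β libraries. Without Both replicate 1 the value was -0.19 and the adjusted p was 0.0515. Scd1 was lower in all 3 Both libraries than in TGF-β, at 46568 ± 1396 against 52805 ± 3131 (SD, n = 3), with a log2 fold change of -0.18 and an adjusted p of 0.0703. It passed the test in 6 of 16 alternatives, among them DESeq2 (adjusted p = 0.0238) and the fits without Stem replicate 1 (0.0436) or Stem replicate 2 (0.0162). For Idi1 the log2 fold change was 0.13 with an adjusted p of 0.312, or 0.0316 without Stem replicate 2. Fasn, Acaca and Insig1 had log2 fold changes of 0.06, -0.04 and -0.06, within the spread of their libraries.

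Mylip was 1.25-fold higher in Both than in TGF-β (log2 0.32, 95% interval 0.19 to 0.45, adjusted p = 0.00731 by edgeR's quasi-likelihood test), with no overlap between its groups, and stayed below Stem (log2 fold change -0.72 in Both versus Stem). Abcg1 was 1.64-fold higher in Both with no overlap, but its interval ran from 0.06 to 1.37 and its adjusted p was 0.17. Without Stem replicate 1 the adjusted p was 0.0166 and without Stem replicate 2 it was 0.0285, with about the same fold. Those 2 libraries are the highest and the lowest of Abcg1 in Stem. Neither Abca1 (log2 fold change -0.03, adjusted p = 0.824) nor Nr1h3 (-0.01, adjusted p = 0.984) passed the test, and the interval for Nr1h3 reached from -0.45 to 0.43. The 5 macrophage markers summed to more in Both than in TGF-β without overlap, as given above, mostly through Csf1r. Its mean was 76.1 in TGF-β and 138 in Both. Cd68 had means of 13.2 and 14.3, and Ptprc 2.37 and 1.81, each with overlapping libraries. Ptprc was at 3 counts or fewer in every library of these groups. A link between these markers and Abcg1 was not tested. Of these 5 markers, Adgre1 and C1qa were at 0 in all 9 libraries.

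Against Stem, Both gave a list much like that of TGF-β, with which it shares the Stem libraries. In Both versus Stem 28 members were higher, 5 lower and 2 were not past the test, Nr1h2 (adjusted p = 0.637) and Srebf2 (adjusted p = 0.0508), with 36.6% of all genes higher and 36.6% lower. At 2-fold 18 were higher and 1 lower (Nr1h3), where 9.55% and 13.2% of all genes were. The median log2 fold change was 1.05 over the members and 1.19 over the 24 enzymes, which stood at 1.21 in TGF-β versus Stem. By role, the median was 1.07 for the mevalonate arm, 0.82 from squalene synthesis to lanosterol and 1.25 from lanosterol to cholesterol. For fatty acid synthesis it was 1.65. Fasn stood highest among the enzymes at 1.88, ahead of Scd1 at 1.82, while Abcg1 reached 2.22 (95% interval 1.46 to 2.99), or 3.06 without Stem replicate 1 and 1.83 without Stem replicate 2. Srebf2 passed without Stem replicate 2 (adjusted p = 0.0357) and without Both replicate 1 (0.0461).

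Other genes of lipid synthesis moved with the members between Stem and TGF-β. Of 16 such genes that are not members, 14 rose and 0 fell by edgeR or DESeq2, and none had an unadjusted p under 0.05 in the lower direction. Fads2, a fatty acid desaturase, had a log2 fold change of 1.68, and Tmem97, a sterol-responsive membrane protein, 1.66. The proteases, ubiquitin ligases and partners that process SREBP or degrade sterol enzymes were mixed, with 5 of 9 higher and 4 lower, led by Rnf145 at 1.17 and Marchf6 at -0.47. Of 7 other LXR targets and partners 3 rose and 2 fell, led by Lpcat3, which remodels phospholipids, at 1.42 and Ttc39b at 0.66. In the isoprenoid branch, which leaves the pathway at farnesyl diphosphate, 4 of 10 rose and 2 fell, led by the farnesyltransferase subunits Fntb at 0.56 and Fnta at -0.48. Of all genes tested, 37.3% were higher and 37.7% lower. Higher genes were 87.5% of the lipid synthesis list, 55.6% of the processing list, 42.9% of the LXR list and 40.0% of the isoprenoid list. Lower genes were 0%, 44.4%, 28.6% and 20.0% in the same order. For the last 2 lists the higher share was near the background, and the lower share was under it but rested on 2 genes each.

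With PFI-3, 1 of the 16 lipid synthesis genes passed the test, Fads1, with a log2 fold change of -0.13 in Both versus TGF-β (adjusted p = 0.0441 by edgeR). Most estimates of this list were small and below 0, 14 against 2 above, with a median of -0.10 beside -0.0020 over all genes. Libraries did not overlap for 5 of the genes, lower in Both, and for 0 higher, beside 17.4% and 15.4% of all genes. At an unadjusted p under 0.05 by edgeR, 4 were lower and 1 higher. In the isoprenoid branch 1 of 10 rose, Icmt, by 0.25 (adjusted p = 0.0477 by edgeR). The SREBP processing list and the other LXR list had 0 calls each by edgeR and by DESeq2, with 3 of 9 and 2 of 7 genes at an unadjusted p under 0.05. The edgeR calls at an adjusted p are read beside 3.54% of all genes higher and 5.38% lower. In a list of this size, 1 call is near that background. For the counts at an unadjusted p and by DESeq2, no share of all genes is given here.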

How the data were processed

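RNA-Seq of 9 libraries, 3 per group, was analysed from the count table. The deposited values are raw counts of reads, 1 row per Ensembl identifier, with no normalization by the authors. Their methods name Flexbar for trimming and STAR for alignment of reads from ribo-depleted, stranded libraries to GRCm39, while the submitters' processing notes list HISAT2 2.2.1, SAMtools 1.13, HTSeq 0.11.3 and GRCm39. The strand setting of the counting and the handling of reads with several alignments are not given in the sources used here, so overlapping and closely related genes carry that uncertainty. Replicates are called independent by the study, and all derive from pooled mice, so p-values measure the spread between these cultures.

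The counts were fitted with edgeR 4.0.16 under R 4.3.3. After filterByExpr and TMM scaling, 14879 genes were tested by the quasi-likelihood test in 1 fit of 9 libraries with group as the only term, and p-values were Benjamini-Hochberg adjusted over all of them. "Rose" and "fell" mean an adjusted p under 0.05, and a 2-fold criterion was added where stated. TGF-β versus Stem is log2 of TGF-β over Stem, and likewise for the other comparisons. Normalized counts are scaled to a mean library of 41184338. With 3 libraries per group an exact permutation test cannot go below p = 0.1, so none was used.

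Members, role groups, other pathway lists and markers were chosen with earlier results of these data known. Every member is named or counted, and library values are given for members past 2-fold in any comparison, past the test in Both versus TGF-β, or largest in their group. For the 5 other lists, the 2 largest changes past the test are named. Alternatives were DESeq2 1.42.0, its size factors, total counts, no filter, a mean count of at least 10, a fit of the 6 libraries compared, a replicate block, a 1.5-fold minimum, and leaving out each library. Ensembl identifiers were matched to symbols in a supplied table. Exon lengths and overlaps came from GENCODE M21 (GRCm38), and promoter sequences from RefSeq (GRCm38.p6).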

Additional observations from a re-analysis of the deposited data

How the results depend on the processing

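Each fold change of the 35 members was recomputed under 16 alternatives, which gave 560 values per comparison, and none changed direction with a call. In TGF-β versus Stem 556 of the 560 kept their side of the threshold: Srebf2 lost its call with total counts, and Nr1h2 gained a call in 3 settings. In Both versus Stem 556 did, and Srebf2 gained a call in the other 4. In Both versus TGF-β 545 did, Cyp51 lost its call without Both replicate 1, and 14 values of Abcg1, Scd1, Idi1 and Dhcr7 gained one. The count of members past the test there was 2, and it became 4 with no filter and 5 with only the 6 libraries compared. Leaving out 1 library gave between 1 (without Both replicate 1) and 5 (without Stem replicate 2) such members, and 4 without Stem replicate 1. At 2-fold the members called stayed between 17 and 22 in TGF-β versus Stem and between 17 and 20 in Both versus Stem, apart from the 1.5-fold minimum, which gave 28 and 27. Members called lower at 2-fold fell from 2 to 1 without Stem replicate 1, Stem replicate 2 or TGF-β replicate 2, and in Both versus Stem from 1 to 0 without Stem replicate 1 or Both replicate 2. Over all genes, the 1.5-fold minimum gave 6217, 291 and 5806 calls in TGF-β versus Stem, Both versus TGF-β and Both versus Stem, against 3739, 94 and 3385, and no filter gave 163 in Both versus TGF-β. The causes were not tested, except that a lower fold minimum adds calls by construction.

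The libraries carry replicate numbers in the labels. Deviations of libraries with the same number correlated between -0.054 and 0.196 over 9 pairs, and with different numbers between -0.18 and 0.167 over 18 pairs, and the values above 0.1 were the 3 pairs of replicate 2 and Stem replicate 1 with TGF-β replicate 1 among the same-numbered pairs. Not every library correlated best with its own number, and no label says what a number marks, so the numbers were not used to pair libraries. With the replicate block, 5 members passed the test in Both versus TGF-β: Mylip and Cyp51, as without it, and also Scd1 (adjusted p = 0.0350), Dhcr7 (0.0402) and Abcg1 (0.0311) by edgeR.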

Other observations

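Oxysterols are the ligands of LXR. Of the listed genes that make them or break them down, Ch25h, Cyp7b1 and Cyp27a1 had larger absolute log2 fold changes in TGF-β versus Stem than any of the 35 members. Ch25h and Cyp7b1 fell, while Cyp27a1 rose, at 2.016 just above the 1.997 of Scd1. Ch25h, the cholesterol 25-hydroxylase gene, had 368.5, 497 and 431 normalized counts in the Stem libraries, 77.7, 96.3 and 78.1 in TGF-β, and 39.6, 48.4 and 50.0 in Both. All 3 groups were separate, with log2 fold changes of -2.36 in TGF-β versus Stem and -0.87 in Both versus TGF-β (adjusted p = 0.00974 by edgeR). Cyp7b1, which clears oxysterols, had 664, 547 and 634 in Stem, 42.1, 67.9 and 51.7 in TGF-β, and 42.3, 65.1 and 37.7 in Both, and its log2 fold change in TGF-β versus Stem was -3.50. Cyp27a1, another oxysterol-forming enzyme, rose (log2 fold change 2.02, 95% interval 1.63 to 2.40) from 25.1, 33.7 and 34.6 to 135, 128 and 116. Of the 8 genes of oxysterols, storage and transport, 4 rose and 4 fell in TGF-β versus Stem, where 37.3% of all genes were higher and 37.7% lower. In Both versus TGF-β 1 rose, Nceh1, which frees stored cholesterol (log2 fold change 0.33, adjusted p = 0.0052 by edgeR), and 2 fell, Ch25h and the lysosomal carrier gene Npc2 (-0.13). That is 12.5% and 25% of the list, where 3.54% of all genes tested were higher and 5.38% lower. The list was chosen with earlier results of these data known, and none of its genes is a member of the 35.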
